A study of Mus musculus with 6 samples.

Results

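Venous-like endothelial cells of mouse pancreatic tumours are described here: 662 of 2069 endothelial cells, among 54911 cells kept from 6 single-cell RNA-seq libraries. A cell was called endothelial when it held UMIs (unique molecular identifiers, each marking 1 captured transcript) of at least 3 of 8 genes, Pecam1, Cdh5, Kdr, Flt1, Cldn5, Egfl7, Emcn and Tie1, and fewer than 5 UMIs of the leukocyte genes Ptprc and Tyrobp together. The members were chosen by detection of marker genes: a cell was called venous-like when at least 2 of 5 venous genes, Ackr1, Selp, Vwf, Nr2f2 and Sele, were detected, and more of them than of 5 tip genes (Esm1, Apln, Angpt2, Kcne3, Pgf) or of 5 arterial genes (Gja4, Gja5, Hey1, Sema3g, Bmx). By the same counting 285 cells were tip-like and 338 arterial-like, and 784 fell in no class. The classes were thus drawn from the same counts that are compared below, and the 25 genes that the rules used are described without a test and were left out of the adjustment of p-values between classes.

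All mice carried the alleles KrasLSL.G12D/+ and P53LSL.R172H/+ with Pdx1-Cre, a Cre driven by a pancreatic promoter that starts tumours from the pancreatic epithelium. The endothelium is not the target of that promoter, and the hosts keep their own immune system. In 3 mice the tumour was taken after 2 days of IPI-926, an inhibitor of the Hedgehog receptor component Smoothened, given by daily gavage at 40 mg/kg, and in 3 mice after its vehicle, hydroxypropyl-beta-cyclodextrin. Tissue was collected 2 h after the last dose, and each library comes from 1 tumour. The study asks how blocking Hedgehog signalling alters the tumour vasculature.

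Veins and postcapillary venules are the vessels at which leukocytes leave the blood. P-selectin (Selp) and E-selectin (Sele) slow passing leukocytes, ACKR1 carries chemokines across the venular wall, von Willebrand factor (Vwf) captures platelets, and the nuclear receptor NR2F2 holds venous identity by restraining Notch signalling. Tip cells lead growing sprouts, and arterial cells depend on Notch.

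The 5 rule genes differed in how closely they kept to the venous-like cells. Ackr1 was detected in 36.0% to 62.1% of venous-like cells per library, against at most 2.27% of tip-like, 0.54% of arterial-like and 0.19% of immune cells of the same libraries. Nr2f2 was detected in 83.7% to 95.5% of venous-like cells, 36.4% to 68.2% of tip-like and 9.19% to 30% of arterial-like cells. Sele was found in 20.2% to 46.3% of venous-like cells and Selp in 63.5% to 82.8%, but Selp was also found in 1.09% to 20.7% of immune cells, whose median depth was 3465 to 7280 UMIs against 4313 to 12409 in venous-like cells. Vwf was the least particular: 77.5% to 93.1% of venous-like, 50% to 87.5% of arterial-like and 39.0% to 65.9% of tip-like cells held it, and its level was 377 ± 151 CPM (the library's counts on a common depth-scaled unit; SD, n = 6) in venous-like and 436 ± 148 CPM in arterial-like cells. These values describe the rule and support nothing beyond it.

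At the edge of the rule, venous-like cells with exactly 2 venous genes numbered 31, 27 and 80 in the vehicle libraries and 19, 6 and 48 in the IPI-926 libraries. Just outside it, cells with 1 venous gene and none of the other sets numbered 22, 14 and 42 with vehicle and 19, 4 and 57 with IPI-926. All 5 venous genes were found together in 19, 14 and 31 vehicle cells and in 25, 7 and 8 IPI-926 cells. No barcode of a venous-like cell was shared between libraries. The caller marked 1 to 20 venous-like cells per library as doublets, and these were kept unless stated.

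Several libraries stood apart in ways that touch the results. In vehicle replicates 1 and 3 the summed acinar markers reached 8503 and 2264 CPM in venous-like cells, against 35.2 CPM in vehicle replicate 2 and at most 19.8 CPM in the 3 IPI-926 libraries. Summed ductal markers ran from 174.5 to 5712 CPM in venous-like sums and from 697 to 8831 CPM in tip-like sums. IPI-926 replicate 3 carried most of the interferon-induced RNA described below. Of 9 megakaryocyte and platelet markers, Gp9 and Gp1ba were at 0 in every venous-like sum, but the whole list summed to 20.6 to 57.1 CPM. Of its 2 tested members 1 was higher and 0 lower than in all other endothelial cells (7.46% and 8.03% of all genes). Lymphatic markers summed to 64.8 to 1321 CPM in venous-like sums. A stricter endothelial gate (at least 5 of the 8 genes and at least 10 of their UMIs per 10000), chosen after seeing the data, left 102, 80 and 220 vehicle and 70, 28 and 91 IPI-926 venous-like cells, and its counts or values are given beside the lists and genes where it ends or reverses a call of those named.

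The share of endothelial cells that were venous-like did not separate the treatments. It was 33.6%, 28.5% and 36.5% in vehicle replicates 1 to 3 and 43.2%, 27.9% and 22.8% in IPI-926 replicates 1 to 3, so the groups overlapped. The means were 32.9% ± 4.03 and 31.3% ± 10.6 (SD, n = 3 each), a difference of -1.60 percentage points (exact permutation p = 0.9, two-sided; the smallest p that 3 against 3 allows is 0.1). The sign of this difference changed under the stricter gate (4.98 points) and when all cells were thinned to 1500 UMIs (1.03 points). The 95% exact binomial interval of the smallest library, IPI-926 replicate 2 with 29 of 104 cells, began at 19.5%. Such intervals cover counting error only.

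Among all kept cells, venous-like cells made up 1.57%, 0.95% and 3.34% with vehicle and 1.02%, 0.44% and 0.63% with IPI-926. The means were 1.95% ± 1.24 and 0.70% ± 0.29 (SD, n = 3 each), with only vehicle replicate 2 falling inside the IPI-926 range (exact permutation p = 0.2, two-sided). The difference of -1.26 points was -0.56 without vehicle replicate 3. The whole endothelium showed the same order: 4.67%, 3.34% and 9.15% of kept cells with vehicle against 2.36%, 1.57% and 2.78% with IPI-926 (no overlap, exact permutation p = 0.1, the smallest possible). A lower share of venous-like cells cannot be told apart here from a higher number of other recovered cells.

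**Figure D1:**
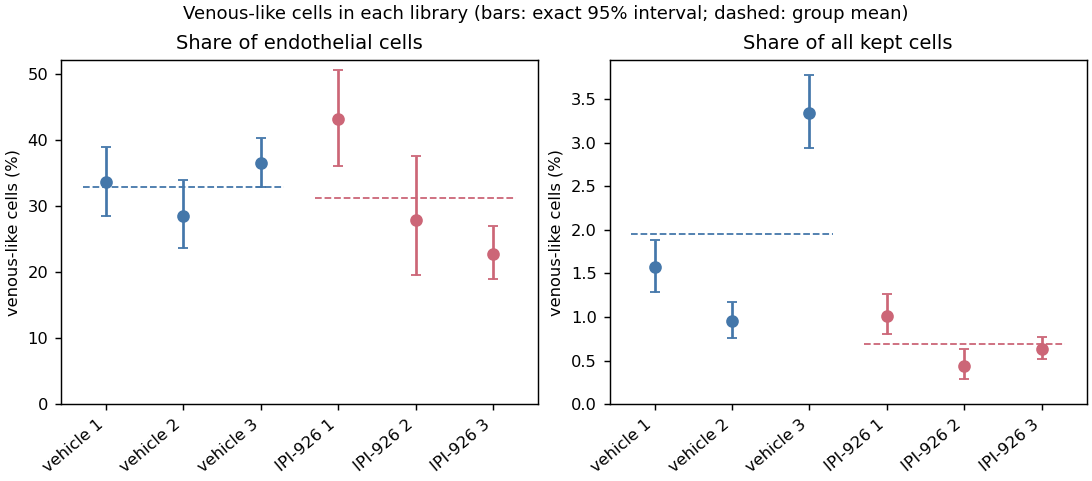
Venous-like cells of each library as a percentage of endothelial cells (left) and of all kept cells (right), with exact 95% binomial intervals as bars and group means as dashed lines. The treatments overlap on the left (22.8% to 43.2% with IPI-926, 28.5% to 36.5% with vehicle), and on the right vehicle replicate 3 is highest at 3.34%.

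Within the endothelium, gene levels of venous-like cells were set against those of tip-like cells of the same library in 6 libraries, and against arterial-like cells in 5, since IPI-926 replicate 2 held only 8 arterial-like cells. Against tip-like cells 872 of 9306 genes were higher in venous-like cells (9.37%) and 891 lower (9.57%), and against arterial-like cells 299 of 8538 were higher (3.5%) and 387 lower (4.53%; edgeR quasi-likelihood test, Benjamini-Hochberg adjusted p under 0.05). All libraries had the same direction for 11.9% (higher) and 12.4% (lower) of genes against tip-like cells, and for 11.4% and 8.46% against arterial-like cells. Under the stricter gate the calls against tip-like cells numbered 1075, of which 655 were shared with the first fit in the same direction and 2 were opposite. Both comparisons use the same venous-like sums, so their values stand side by side below and are not independent of each other. The shares called over all genes, given above, are the ones to set beside the counts of each list below. Levels per gene are CPM on 1 scale over the 3 classes.

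Madcam1, the mucosal addressin that binds the leukocyte integrin alpha4beta7, had the largest fold over both classes. Its level in venous-like cells was 115.3, 536 and 110.1 CPM in vehicle replicates 1 to 3 and 76.8, 144.2 and 178.4 CPM in IPI-926 replicates 1 to 3. Tip-like cells lay between 0 and 9.02 CPM and arterial-like cells between 0 and 14.0 CPM, so no library of either class reached the venous-like range. The log2 difference was 6.44 ± 0.27 (SE; edgeR adjusted p = 2.9e-07) against tip-like and 6.48 ± 0.36 (edgeR adjusted p = 6.8e-09) against arterial-like cells. Per cell, 26.1%, 62.9% and 29.2% of vehicle and 20.7%, 48.3% and 35.6% of IPI-926 venous-like cells held a Madcam1 UMI, against at most 0.40% of immune cells. Madcam1 lies on chromosome 10 (79664559 to 79668537, plus strand, GRCm38).

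Since Madcam1 and the chemokine Cxcl10 are textbook NF-kappa-B targets, promoter windows (250 bases before to 50 after the start) of the highest-fold genes were searched for GGGNNTTNCC, a form of the factor's site, on both strands. Of 22 genes (the highest-fold genes of both comparisons and the 5 rule genes) 20 had a promoter entry in RefSeq (GRCm38.p6), and 5 of these held a match within the 300-base window of any of their starts, where 1575 of 32851 promoter windows did (4.79%). Among the rule genes Ackr1, Selp, Nr2f2 and Sele had a window, and none of these held a match. Madcam1 and Cxcl10 prompted the search, and genes with several starts had more windows in which to match, so the count per gene and the share of windows cannot be read against each other. The 250 upstream bases of Madcam1 and Cxcl10 are shown in the direction of the gene, with the match in capitals: Madcam1 on the plus strand at chr10:79664309-79664558 and Cxcl10 on the minus strand at chr5:92348890-92349139. The Madcam1 window held 3 matches, 2 of them overlapping by all but 1 base, at bases -84, -83 and -70 from the start, and a match is a description of the letters only.
Madcam1: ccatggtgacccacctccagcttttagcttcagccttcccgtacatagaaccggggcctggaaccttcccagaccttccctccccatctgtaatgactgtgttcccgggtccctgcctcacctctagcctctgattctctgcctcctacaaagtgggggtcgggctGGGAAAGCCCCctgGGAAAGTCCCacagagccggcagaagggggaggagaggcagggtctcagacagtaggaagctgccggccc
Cxcl10: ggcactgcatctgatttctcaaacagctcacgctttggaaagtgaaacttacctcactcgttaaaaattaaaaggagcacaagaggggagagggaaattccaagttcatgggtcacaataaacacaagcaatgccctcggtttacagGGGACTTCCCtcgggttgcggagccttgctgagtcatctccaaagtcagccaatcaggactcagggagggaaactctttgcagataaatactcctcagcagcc

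Beside Madcam1, the other highest-fold genes were mostly surface proteins and enzymes of low to moderate level. Clca3a2, a member of a chloride channel accessory family, stood at 30.1 ± 16.3 CPM (SD, n = 6) in venous-like cells, with log2 differences of 5.50 and 4.62 against tip-like and arterial-like cells. Its near copy Clca3a1 was 3.36 higher on the log2 scale than in tip-like cells, and reads of the pair may have been split between them. Gpr182, a scavenging receptor for chemokines, stood at 25.4 ± 9.4 CPM and was 4.15 and 3.17 higher. Against tip-like cells Cmah (4.99), Ankrd33b (3.92), Dnm3 (3.35), Mctp1 (3.30) and Gpm6a (3.20, also a mesothelial marker) followed. Against arterial-like cells Adgrg6 (3.65), the metal transporter Slc39a8 (3.44), the potassium channel Kcnh1 (3.35), Gm46565 (3.28), Dnah6 (3.26), the homeobox gene Lhx6 (3.16) and Cxcl10 (3.09) followed. Each of these passed the edgeR test in its comparison; Cxcl10 was above 22 CPM in venous-like cells only in IPI-926 replicate 3, at 259 CPM, where tip-like cells had 559 CPM.

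A list of 20 other genes known from venous endothelium, none used by the rule, is set beside the label. It was chosen with earlier results of these data known, so it is not an independent check. Against tip-like cells 14 were higher and 0 lower (median log2 difference 1.83, against -0.02 over all genes tested; 12 of 20 under the stricter gate). Against arterial-like cells 6 of 19 were higher and 0 lower (median 0.80 against 0.05; 11 of 19 under the stricter gate).

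Lrg1, a secreted glycoprotein that modifies TGF-beta signalling in vessels, was the most abundant of these. It stood at 1299, 678 and 901 CPM in the vehicle and 861, 1357 and 1070.4 CPM in the IPI-926 venous-like sums, against 57.8 to 207 CPM in tip-like and 345 to 913 CPM in arterial-like sums. Venous-like and tip-like values did not overlap and venous-like and arterial-like values did, with log2 differences of 3.13 ± 0.29 (edgeR adjusted p = 0.000683) and 0.92 ± 0.19 (edgeR adjusted p = 0.0128). Slco2a1, which takes prostaglandins up from the blood, ranged from 572 to 1137 CPM in venous-like and from 45.3 to 139.6 CPM in tip-like sums (log2 difference 3.31 ± 0.17, edgeR adjusted p = 8.9e-07). Against arterial-like sums its difference of 0.87 passed under the stricter gate (edgeR adjusted p = 7.0e-05) and not before (0.0569).

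Receptors for inflammatory cytokines were the next group. The interleukin-1 receptor Il1r1 stood at 123, 96.4 and 104.0 CPM with vehicle and 68.9, 86.5 and 72.7 CPM with IPI-926 in venous-like sums, above all tip-like (5.91 to 27.1 CPM) and arterial-like (16.9 to 34.0 CPM) sums. Its log2 difference was 2.60 ± 0.26 against tip-like and 1.83 ± 0.20 against arterial-like cells (edgeR adjusted p = 0.000246 and 1.7e-05). Il6st, the signalling chain shared by the interleukin-6 family, was 2.05 ± 0.17 and 0.97 ± 0.15 higher (edgeR adjusted p = 4.9e-05 and 0.000495). Of 16 tested cytokine receptor and signal genes, 9 were higher and 1 lower than in tip-like cells, among them the leukaemia inhibitory factor receptor Lifr (1.89) and the TNF receptor Tnfrsf1a (0.95), with 7 and 1 of 14 under the stricter gate. Against arterial-like cells 2 of 15 were higher and 1 lower (3.5% and 4.53% of all genes). Under the stricter gate 4 were higher and 0 lower.

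Adhesion molecules and their inducers were less uniform. Icam1, the ligand on which leukocytes arrest, was 2.13 ± 0.28 higher than in tip-like cells (edgeR adjusted p = 0.00295), with 106.5 to 422 CPM in venous-like and 20.6 to 74.5 CPM in tip-like sums, which did not overlap. Against arterial-like cells its difference was 0.45 ± 0.22 (edgeR adjusted p = 0.294). Vcam1, a second arrest ligand, differed by 1.08 and -0.25 (edgeR adjusted p = 0.16 and 0.543), and its highest venous-like value, 521 CPM, was in IPI-926 replicate 2. Of 17 NF-kappa-B target genes 5 were higher and 0 lower than in tip-like cells (median 0.47; 4 of 15 under the stricter gate), and 0 were higher and 1 lower than in arterial-like cells (Nfkbia, -0.61), where 1 was higher and 2 lower at an unadjusted p under 0.05 (10.8% and 9.81% of all genes). Of 14 adhesion genes 7 were higher than in tip-like cells, but 4 higher and 2 lower under the stricter gate. Against arterial-like cells Madcam1 was the 1 higher gene and 6 were lower, among them the sialomucins Podxl (-1.79) and Cd34 (-0.46). Under the stricter gate 3 were lower, and Cd34 did not pass (-0.25, edgeR adjusted p = 0.245).

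Genes of vessel identity differed among themselves. Ephb4, the venous ephrin receptor, was 1.46 ± 0.16 higher than in tip-like cells (edgeR adjusted p = 0.000186) and differed by -0.01 ± 0.17 from arterial-like cells (edgeR adjusted p = 0.996). Nrp2, a semaphorin and VEGF co-receptor of veins and lymphatics, was 0.85 ± 0.17 and 1.35 ± 0.20 higher (edgeR adjusted p = 0.00733 and 0.000763). The apelin receptor Aplnr was 1.64 higher than in tip-like cells (edgeR adjusted p = 0.0316, 0.172 under the stricter gate) and 1.78 above arterial-like cells (edgeR adjusted p = 0.133, 8.7e-06 under the stricter gate). The homeobox factor Meox1 was 1.98 ± 0.22 above arterial-like cells (edgeR adjusted p = 2.0e-05). Bst1, an ectoenzyme, was 2.22 and 1.75 higher, and the leptin receptor Lepr 1.86 higher than in tip-like cells.

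Notch ligands and arterial genes were lower. Dll4, the Notch ligand of sprouts and arteries, stood at 22.1, 44.9 and 18.4 CPM with vehicle and 23.7, 28.8 and 19.9 CPM with IPI-926 in venous-like sums, and at 84.5 to 312 CPM in the 5 tested arterial-like sums, which were all higher. The log2 difference was -2.70 ± 0.18 against arterial-like cells (edgeR adjusted p = 8.6e-08) and -1.08 ± 0.21 against tip-like cells (edgeR adjusted p = 0.00562, lower in 5 of 6 libraries). Against arterial-like cells 6 of 10 Notch genes were lower, including the ligands Jag1 (-2.25) and Jag2 (-1.98) and the receptor Notch1 (-1.02), and 1 was higher (6 and 0 under the stricter gate). Of 15 other arterial genes 12 were lower and 0 higher (median -2.25), among them the transcription factor Sox17 (-2.50), Vegfc (-2.55) and Stmn2 (-3.85). Against tip-like cells the arterial list split into 2 higher and 2 lower of 15 (9.37% and 9.57% of all genes).

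The chemokine Cxcl12 and its receptor Cxcr4 were both low in venous-like cells. Cxcl12 ranged from 45.9 to 128.5 CPM there and from 396 to 1319 CPM in the 5 arterial-like sums (log2 difference -3.24 ± 0.20, edgeR adjusted p = 1.0e-06). Against tip-like cells its difference was -0.67 (edgeR adjusted p = 0.0422, and up to 0.296 among the alternatives). Cxcr4 stood at 3.59 to 10.7 CPM in venous-like, 10.97 to 74.2 CPM in tip-like and 33.8 to 130.5 CPM in the 5 arterial-like sums, with no overlap. Its log2 differences were -3.10 ± 0.28 and -3.61 ± 0.27 (edgeR adjusted p = 5.6e-05 and 2.1e-07). Of the genes of largest fold below arterial-like cells, the others were Depp1 (-4.04), St8sia6 (-3.81), Msx1 (-3.71), Rbp7 (-3.53), Ptprr (-3.04), Btnl9 (-2.91) and Smpdl3a (-2.84).

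**Figure D2:**
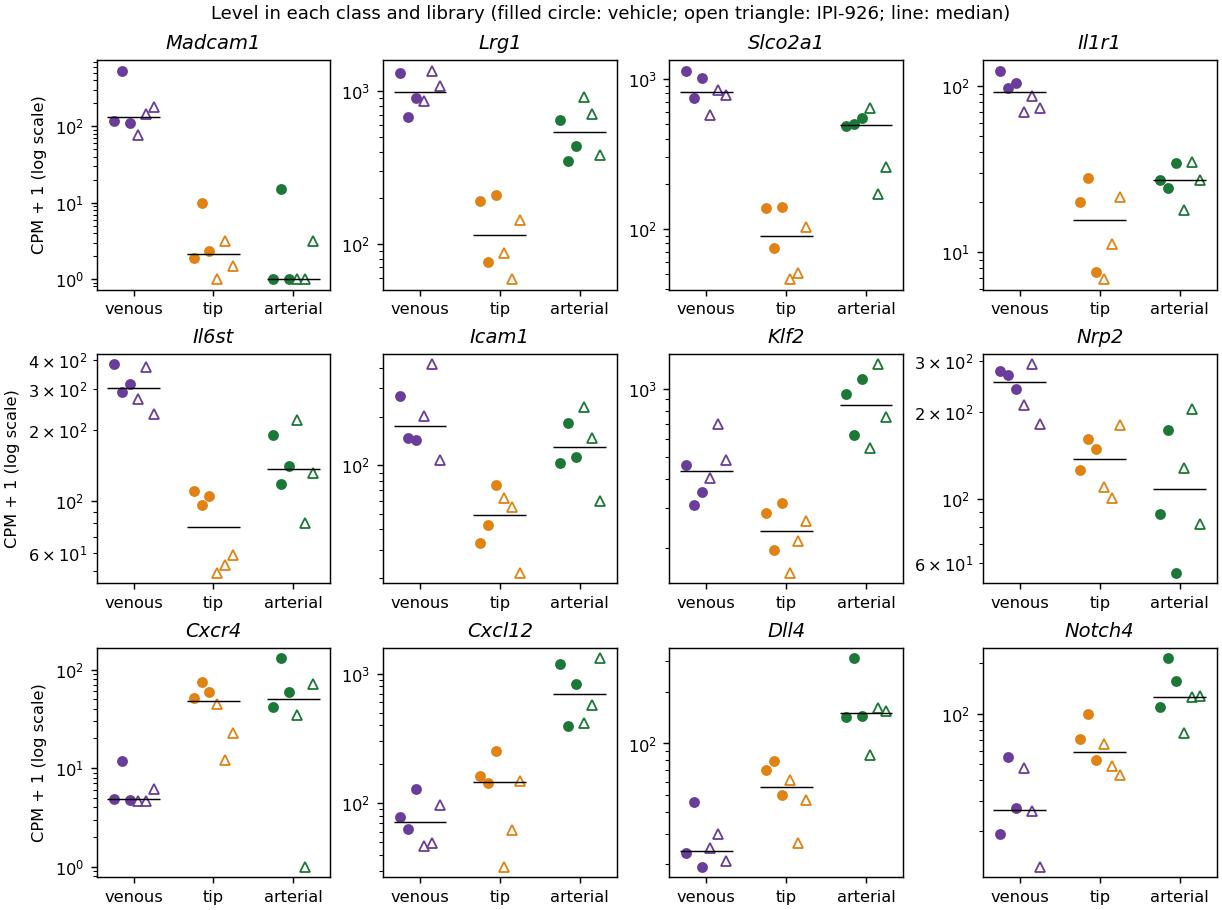
Levels of 12 genes in CPM plus 1 on a log axis, for the venous-like, tip-like and arterial-like sum of each library (filled circles vehicle, open triangles IPI-926, lines the median of 6 libraries, with the 8 arterial-like cells of IPI-926 replicate 2 included). Madcam1 and Il1r1 lie above both other classes in every library, Klf2 lies between them, and Cxcr4, Cxcl12, Dll4 and Notch4 lie lowest by median in venous-like cells.

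Klf2, the shear-stress transcription factor, ranged from 308 to 701 CPM in venous-like sums, with log2 differences of 0.92 ± 0.18 against tip-like cells (edgeR adjusted p = 0.0089) and -0.96 ± 0.15 against arterial-like cells (edgeR adjusted p = 0.000896). Of 10 flow-response genes 7 were higher than in tip-like cells and 3 lower than in arterial-like cells, Klf2, the nitric oxide synthase Nos3 (-0.92) and the anticoagulant receptor Thbd (-0.62), with a list median of -0.30 and 4 of 10 positive. Under the stricter gate 5 were higher than in tip-like cells and 2 lower than in arterial-like cells, Thbd no longer passing (-0.46, edgeR adjusted p = 0.0926). Nos3 was 1.22 above tip-like cells, but 0.44 under the stricter gate (edgeR adjusted p = 0.087). Klf4 differed by 0.68 from tip-like cells (edgeR adjusted p = 0.0481, 0.173 under the stricter gate) and by -0.63 from arterial-like cells (0.171). Of 15 coagulation and fibrinolysis genes 6 were higher and 3 lower than in tip-like cells (5 and 1 of 13 under the stricter gate). The higher ones included Thbd (1.55), the tissue factor inhibitor Tfpi (1.53) and the ADP-degrading Entpd1 (2.73), and the lower ones were F3, F2r and Anxa2. Against arterial-like cells 0 of 13 were higher and 3 lower (3.5% and 4.53% of all genes). Under the stricter gate 2 were higher and 1 lower.

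Genes of BMP and TGF-beta signalling had opposite signs in the comparisons. Against tip-like cells 9 of 12 were higher and 0 lower, such as the receptor Bmpr2 (1.17), with 6 of 12 under the stricter gate. Against arterial-like cells 10 of 14 were lower and 1 higher (9 and 1 under the stricter gate), such as the inhibitory Smad6 (-2.65) and Smad7 (-1.12) and the receptor Acvrl1 (-1.19). Epas1, a hypoxia-inducible factor, had a log2 difference of -1.61 ± 0.12 against arterial-like cells (edgeR adjusted p = 3.0e-07). The angiopoietin receptor Tek and the receptor Calcrl were 2.34 and 2.3 above tip-like cells.

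Below tip-like cells were genes of sprouting, glycolysis and division. Of 16 other tip genes 5 were lower and 1 higher (11 lower of 15 under the stricter gate), such as Trp53i11 (-1.40) and Igfbp3 (-1.20). Notch4 was -1.11 ± 0.20 against tip-like cells (edgeR adjusted p = 0.00418). Of 16 glycolysis genes 10 were lower and 0 higher (median -0.76; 8 of 15 under the stricter gate), such as Pkm (-0.90) and Gapdh (-0.95). Of 20 mitosis genes 12 were lower (median -1.04), such as Plk1 (-1.24) and Hmmr (-1.18), with 4 of 16 under the stricter gate. Against arterial-like cells the order of the division genes was the opposite: 6 of 10 mitosis genes were higher, such as Cdk1 (1.43) and Top2a (1.40), with 1 of 8 under the stricter gate, and 5 of 12 replication genes, such as Mcm3 (1.36) and Tyms (1.10), with 2 of 9. Cells with at least 2 of 3 division genes made up 6.31%, 30.3% and 2.02% of vehicle and 25.6%, 17.2% and 14.4% of IPI-926 venous-like cells. Of tip-like cells they made up 31.1%, 41.5% and 6.82% with vehicle and 44.4%, 50% and 40% with IPI-926. Of arterial-like cells they made up 1.59%, 9.09% and 1.62% with vehicle and 10%, 12.5% and 6% with IPI-926. Median depth was 8047 to 45914 UMIs per tip-like cell against 4313 to 12409 per venous-like cell, and its part in these differences was not tested.

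The other genes of largest fold below tip-like cells were mostly not endothelial ones. Gpihbp1, which anchors lipoprotein lipase in capillaries, was -3.18 ± 0.40 (edgeR adjusted p = 0.00437). The endocrine gene Chga (-3.94), the mast cell and basophil protease Mcpt8 (-2.48) and the epithelial genes Sprr1a (-2.42), Psca (-2.37), Areg (-2.36), Serpinb5 (-2.31), Cdh17 (-2.25) and Tns4 (-2.21) made up the rest beside Cxcr4. Under the stricter gate, of these only Gpihbp1, Chga and Cxcr4 stayed among the tested genes. The ductal markers Epcam and Krt19 differed by -2.29 and -2.08 (edgeR adjusted p = 0.0692 and 0.109), and by 0.26 and -0.02 under the stricter gate.

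Class I antigen presentation was higher than in tip-like cells: 13 of 14 genes passed (median 0.93), with 7 of 14 under the stricter gate (median 0.58). H2-D1 was 0.93 ± 0.16 and H2-K1 1.11 ± 0.18 higher (edgeR adjusted p = 0.00314 and 0.00356), and these near-identical genes may share reads. Against arterial-like cells 0 of 14 passed in the edgeR test, where 1 was higher and 2 lower at an unadjusted p under 0.05, and 1 was higher under the stricter gate. Plvap, the diaphragm protein of fenestrated vessels, was 1.03 above tip-like cells (edgeR adjusted p = 0.00164) and 0.27 under the stricter gate (0.277).

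**Figure D3:**
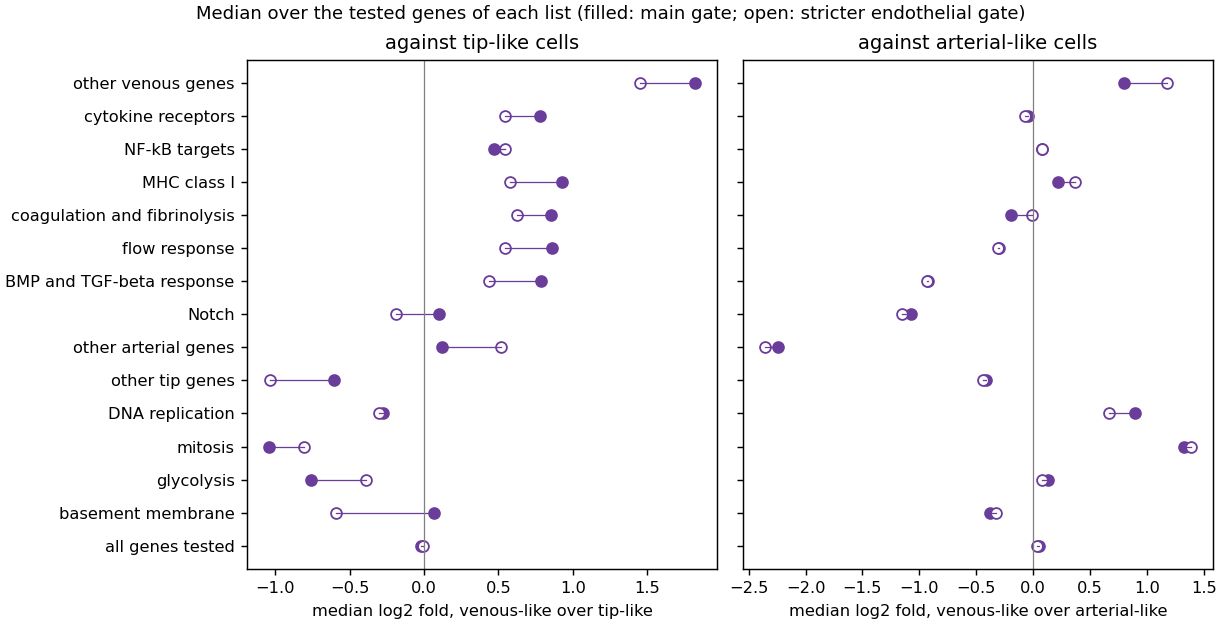
Median log2 difference of venous-like over tip-like (left) and arterial-like cells (right) over the tested genes of each list, with the main gate filled and the stricter endothelial gate open. Other venous genes lie at 1.83 and 0.80, other arterial genes at 0.12 and -2.25 and all genes tested at -0.02 and 0.05; the basement membrane and Notch medians change sign between gates against tip-like cells.

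Of 32 endothelial and pathway genes listed whatever their result, Madcam1 among them, 24 could be tested against tip-like cells, and of these 13 were higher and 0 lower. Those that did not pass included Cd34 (0.42), the VEGF-C receptor Flt4 (0.89), Nrp1 (0.32), the capillary genes Cd36 (1.41) and Rgcc (-0.65), the lymphatic genes Prox1 (2.55) and Lyve1 (1.26), Meox2 (0.69), and the Hedgehog genes Ptch1 (0.29) and Smo (0.12). Against arterial-like cells 5 of 25 were higher and 5 lower. The VEGF co-receptor Nrp1 was lower (-0.87 ± 0.14, edgeR adjusted p = 0.000781), while Flt4 (-0.75), Cd36 (-1.26), Rgcc (-0.22), Prox1 (0.20), Lyve1 (0.25), Meox2 (0.90), Lef1 (-0.93), Ptch1 (-0.59), Smo (0.64) and Plvap (0.17) did not pass; under the stricter gate Plvap did (0.46, edgeR adjusted p = 0.0436). As a description of genes used by the endothelial rule, Kdr differed by 0.80 and -0.69, Flt1 by 0.97 and -1.10, Cldn5 by 0.07 and -1.41 and Cdh5 by 0.34 and -0.51 against tip-like and arterial-like cells. Car4, Axin2 and Gli1 were too low to test in either comparison.

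Against all other endothelial cells together, 797 of 10677 genes were higher in venous-like cells (7.46%) and 857 lower (8.03%). Of the 1654 called genes 292 were called in the same direction under the stricter gate, where 645 passed in all, and in IPI-926 replicate 2 the unclassed cells had a median of 5.50 endothelial UMIs per 10000. Of the 20 other venous genes 14 were higher and 0 lower, and 16 under the stricter gate. Madcam1 (6.05), Lrg1 (2.5) and Il1r1 (1.97) passed under both gates. Cd34 went from 0.74 (edgeR adjusted p = 0.0305) to -0.22 (0.159), and Nrp1 from 0.39 (0.101) to -0.52 (0.00214).

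As a description, the venous-like cells were also divided by a gene of the rule itself. Split by detection of Ackr1, they formed sets of 48, 32 and 109 cells with it and 63, 57 and 138 without it in the vehicle libraries, and of 50, 18 and 39 with and 32, 11 and 65 without in the IPI-926 libraries. Of 3486 genes at 50 CPM or more in either set, 109 were higher with Ackr1 in all 6 libraries and 109 in none, which is a description without a test. The 109 higher genes include Ackr1 itself, whose direction the split fixed, and the rule genes Selp and Sele. How many genes would share a direction in all 6 libraries by chance was not tested. Selp and Sele, rule genes that carry leukocyte rolling, had median log2 ratios of 1.87 and 1.74. Madcam1 averaged 345 CPM with Ackr1 and 87.4 CPM without (1.74), and Glycam1, a sulfated ligand of L-selectin typical of high endothelial venules, 60.8 and 7.14 CPM (1.49). Clca3a2 (1.75), Adgrg6 (1.22), the water channel Aqp1 (1.20), Icam1 (1.15), Il6st (1.04), Lrg1 (0.80) and Ubd (0.76) were also higher with Ackr1.

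Among the genes of largest ratio in cells without Ackr1, picked from the 109 and with no list counted, Thy1 averaged 132 CPM without and 32.2 CPM with Ackr1 (median log2 ratio -2.07), the basement membrane nidogen Nid2 102 and 23.9 CPM (-1.42), and Gpihbp1 54.5 and 14.3 CPM (-1.19). The matrix genes Col6a3 (-1.41) and Tnc (-1.25) and the intermediate filament Nes (-0.90) were lower with Ackr1 in every library. The lymphatic chemokine Ccl21a (-2.03) was at 0 in all cells with Ackr1, and also in those without it in vehicle replicate 3 and IPI-926 replicate 2. Median depth of the cells with Ackr1 was above that of the cells without it in all 6 libraries, by 5529 against 5389 UMIs in vehicle replicate 1 and 13556 against 11066 UMIs in IPI-926 replicate 1, and its part in the detection of Ackr1 was not tested.

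Between treatments no gene of venous-like cells passed. Of 9425 genes 0 were called higher and 0 lower with IPI-926 by edgeR (smallest adjusted p = 0.691), 158 were higher (1.68%) and 157 lower (1.67%) at an unadjusted p under 0.05, and the groups did not overlap for 432 higher (4.58%) and 444 lower (4.71%) genes. With DESeq2 6 genes passed, and with limma-voom 0.

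Levels in the comparison of treatments are CPM scaled over the 6 venous-like sums alone, so they differ slightly from the levels given above for the same sums. The rule genes are given as a description. Ackr1 stood at 122.0, 70.1 and 125.5 CPM with vehicle and 214, 300.3 and 93.2 CPM with IPI-926, and Sele at 99.4, 79.0 and 55.2 against 181, 142 and 37.3 CPM. In both genes IPI-926 replicates 1 and 2 were above every vehicle library while replicate 3 was within or below their range. Nr2f2 stood at 340.5, 293 and 282 CPM with vehicle and 238, 227 and 240.5 CPM with IPI-926, without overlap. Selp (426 to 627 against 232 to 989 CPM) and Vwf (205 to 550.1 against 234 to 494 CPM) overlapped.

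Genes of small p are given next, although none passed. The homeobox factor Meox2 stood at 16.7, 5.50 and 6.30 CPM with vehicle and 27.3, 31.3 and 23.1 CPM with IPI-926 (1.57 ± 0.44, edgeR adjusted p = 1.0), without overlap. Il1r1 stood at 126.0, 98.9 and 107 CPM against 70.8, 88.4 and 74.5 CPM, also without overlap (-0.51 ± 0.20, edgeR adjusted p = 1.0).

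Of the genes higher at an unadjusted p under 0.05, Cdc45, which loads the replicative helicase, stood at 2.95, 2.75 and 2.91 CPM with vehicle and 10.3, 23.9 and 13.3 CPM with IPI-926 (2.35 ± 0.48, edgeR adjusted p = 1.0). The clamp loader Rfc5 (1.38), the phosphatase Impa2 (1.52), the stress factor Ddit3 (1.10) and the mitotic ubiquitin carrier Ube2s (0.86) also had groups that did not overlap. All 15 tested replication genes and 18 of 19 mitosis genes had a positive difference, where 4588 of 9425 did over all genes. The medians were 0.63 and 0.99 against -0.01 over all genes, and 0.65 and 0.74 under the stricter gate. They were 1.26 and 2.18 without vehicle replicate 2, the vehicle library of most mitosis RNA, and 0.77 and 0.999 without IPI-926 replicate 3. In edgeR 1 of each list was higher and 0 lower at an unadjusted p under 0.05 (1.68% and 1.67% of all genes). Summed mitosis genes were 382, 1012 and 92.8 CPM with vehicle and 1234, 608 and 835 CPM with IPI-926, so that vehicle replicate 2 lay within the IPI-926 range. Vehicle replicate 3 was the lowest library. The genes of each list come from the same sums, so their signs are not independent of each other. Of 16 glycolysis genes 15 had a positive difference (median 0.47, and 0.29 under the stricter gate). In edgeR 5 were higher and 0 lower at an unadjusted p under 0.05 (1.68% and 1.67% of all genes). Among the 5, Gapdh stood at 824, 763 and 748 against 1308, 989 and 1118 CPM (0.55 ± 0.18), and Pgk1 differed by 0.70 ± 0.21.

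Among the genes lower at an unadjusted p under 0.05 were several of the tumour epithelium. Psca stood at 18.7, 38.5 and 32.0 CPM with vehicle and 2.95, 5.53 and 2.66 CPM with IPI-926, and Gkn2 at 14.8, 15.8 and 51.9 CPM against 0, 0 and 1.77 CPM. The acinar protease Ctrb1 stood at 3935, 16.5 and 1050.1 CPM with vehicle and at most 5.53 CPM with IPI-926, and ductal Tff1 at 77.0 to 456.5 against at most 14.7 CPM. All 10 tested ductal markers were lower by sign (median -1.75), and their part in the other differences was not tested. The zinc finger genes Zfp362 (-1.60) and Zscan29 (-1.53) were also among the genes of smallest p.

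**Figure D4:**
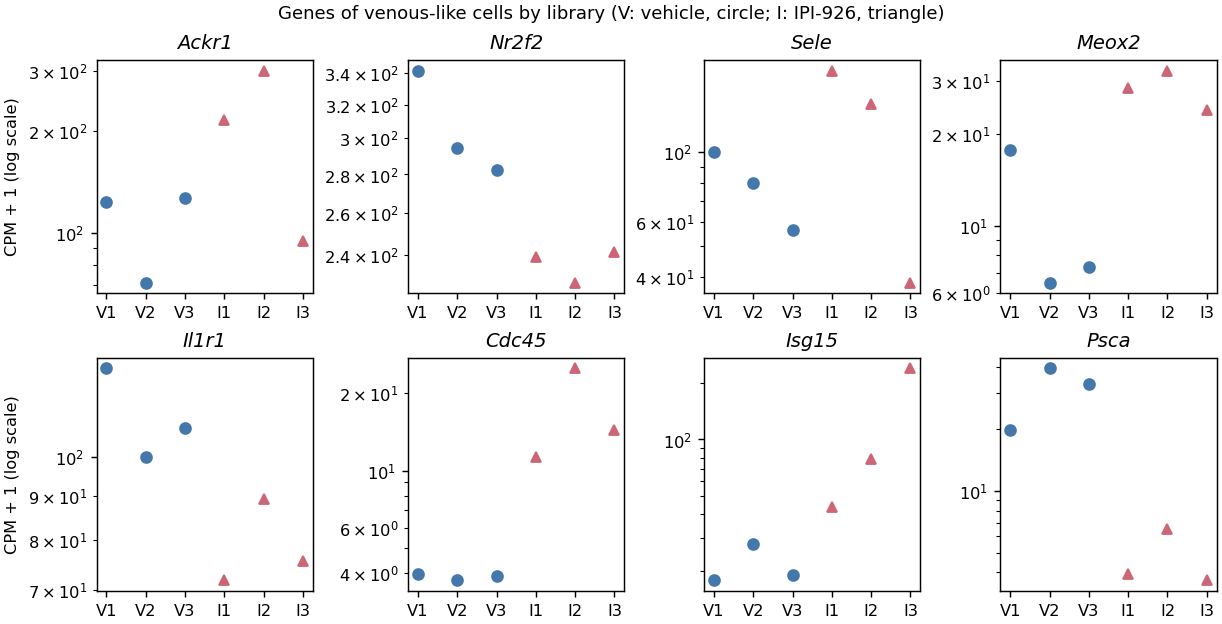
CPM plus 1 on a log axis of 8 genes in the venous-like sum of each library (V vehicle, I IPI-926). Nr2f2, Il1r1 and Psca lie lower and Meox2, Cdc45 and Isg15 higher in all 3 IPI-926 libraries, while Ackr1 and Sele overlap; none passed the adjusted threshold of the edgeR test.

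Interferon-induced genes were high in 1 IPI-926 library. Summed interferon-inducible GTPases, which attack intracellular pathogens, were 283, 278 and 193 CPM with vehicle and 239.8, 254 and 3250.0 CPM with IPI-926, and summed class II antigen presentation genes were 157, 229 and 214 against 96.0, 27.0 and 4764 CPM. IPI-926 replicate 3 was thus far above all other libraries in both lists, and for class II the other IPI-926 libraries were below every vehicle library. In that library T and NK cell markers summed to 112 CPM with 7 of 8 detected, against at most 6.64 CPM elsewhere, and their part in it was not tested. Without it the median difference of the GTPases went from 2.28 to -0.04, that of class II from 2.71 to -1.56, and that of class I from 1.44 to 0.32. Its tip-like and arterial-like sums were high as well, at 2080.0 and 2403 CPM of GTPase RNA.

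Of 13 tested interferon response genes 12 had a positive difference, where 4588 of 9425 did over all genes. At an unadjusted p under 0.05 in edgeR 3 were higher and 1 lower (1.68% and 1.67% of all genes). The list median of 1.24 went to 0.12 without IPI-926 replicate 3. Isg15 and Bst2, picked from this list, were higher in all 3 IPI-926 libraries. Isg15, a ubiquitin-like antiviral modifier, stood at 16.7, 26.8 and 17.9 CPM with vehicle and 42.8, 77.4 and 239 CPM with IPI-926 (2.55 ± 0.68, edgeR adjusted p = 1.0; DESeq2 adjusted p = 0.0118). Bst2, which tethers budding virions, stood at 82.7, 176 and 42.2 against 219.7, 357 and 899 CPM (2.3 ± 0.75, edgeR adjusted p = 1.0; DESeq2 adjusted p = 0.0303). Neither gene overlapped between groups. H2-K1 (428, 518 and 435 against 493, 787 and 2782 CPM), Gbp2 (13.7 to 18.9 against 12.5 to 364 CPM), Igtp (at most 11.2 against 272 CPM in replicate 3) and Cd74 (at most 105 against 2874 CPM in replicate 3) overlapped between groups. Replicate 3 was the high library of Igtp and Cd74, while in H2-K1 IPI-926 replicate 2 was also above every vehicle library. The class I gene H2-Q7, whose near copies may share its reads, stood at 28.6 to 67.9 CPM with vehicle and at 110.6, 114.2 and 963 CPM with IPI-926, without overlap.

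A second library stood out for chemokines. Summed endothelial chemokines and cytokines were 422, 684 and 506 CPM with vehicle and 461, 3003 and 2028 CPM with IPI-926, and summed NF-kappa-B targets 1733, 1382 and 1298 against 1625, 4929 and 1537 CPM. IPI-926 replicate 2, with 29 venous-like cells, held the highest of both. There Vcam1 reached 532.5 CPM (46.0 to 169.6 with vehicle, 94.4 and 167 in the other IPI-926 libraries), Icam1 431 CPM (145.9 to 273 with vehicle), Ccl7 387 CPM (at most 25.4 with vehicle) and Cxcl1 247 CPM (at most 79.7 with vehicle). Csf1 stood at 12.8, 30.9 and 14.5 CPM with vehicle and 22.8, 47.9 and 75.4 CPM with IPI-926, and Icam2 at 59.1 to 120.2 against 125.1 to 210.0 CPM. Of 17 NF-kappa-B targets 15 had a positive difference (median 0.46), where 4588 of 9425 did over all genes. At an unadjusted p under 0.05 in edgeR 2 were higher and 1 lower (1.68% and 1.67% of all genes). Their summed level was above every vehicle library only in IPI-926 replicate 2.

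**Figure D5:**
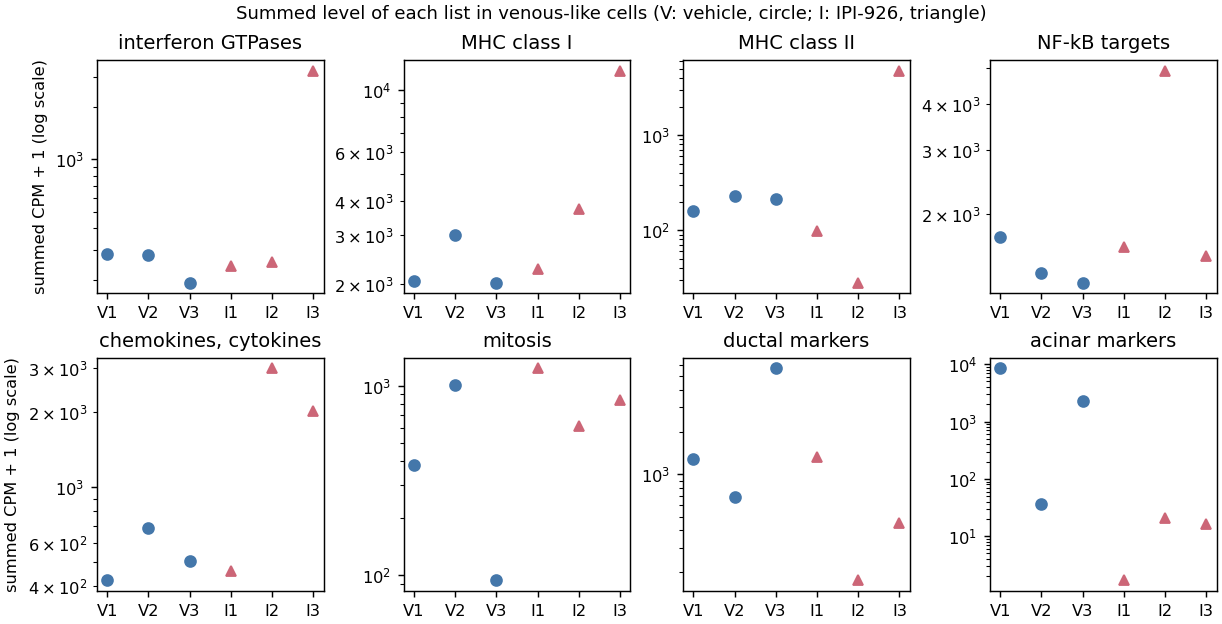
Summed CPM plus 1, on a log axis, of 8 gene lists in the venous-like sum of each library (V vehicle, I IPI-926). IPI-926 replicate 3 is highest for interferon GTPases (3250.0 CPM) and both MHC classes, IPI-926 replicate 2 for NF-kappa-B targets (4929 CPM), and acinar markers are 2264 CPM or more only in vehicle replicates 1 and 3.

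Hedgehog genes were scarce in venous-like cells. Ptch1, receptor and target of the pathway, stood at 30.5, 29.5 and 17.9 CPM with vehicle and 38.3, 25.8 and 15.1 CPM with IPI-926 (0.05 ± 0.38, edgeR adjusted p = 1.0), and Smo at 14.4 to 29.1 against 14.7 to 17.0 CPM. Both genes overlapped between groups, and Gli1 and Axin2 were too low to test. Of the 29 listed endothelial and pathway genes tested, 0 passed in edgeR. An unadjusted p under 0.05 was found for 2 of them, and for 315 of 9425 over all genes. Madcam1 stood at 118, 549.6 and 113 CPM with vehicle and 78.9, 147 and 183 CPM with IPI-926, with only vehicle replicate 2 above the IPI-926 range. Kdr (-0.05), Flt1 (-0.06), Cdh5 (-0.19), Plvap (0.12), Cd34 (0.08), Nrp1 (-0.32), Nrp2 (-0.20), Ephb4 (-0.28), Klf2 (0.50), Nos3 (0.25) and Lrg1 (0.19) had log2 differences near 0 or within error.

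The response of venous-like cells was also set against that of all other endothelial cells of the same library. Of 11710 genes 0 passed in edgeR, while 544 had a more positive (4.65%) and 334 a more negative response (2.85%) at an unadjusted p under 0.05. Of 31 listed genes tested 14 had an unadjusted p under 0.05 in edgeR. With DESeq2 4 genes passed. Without IPI-926 replicate 3 edgeR called 100, 92 of them more positive and 8 more negative. Summed barrier and junction genes of the other endothelial cells were 4090, 3399 and 3301 CPM with vehicle and 1858, 2067 and 2235 CPM with IPI-926. In venous-like sums they were 5065, 4614 and 4255 against 4163, 5216 and 3763 CPM. Under the stricter gate 374 of 9739 genes had an unadjusted p under 0.05, where 878 of 11710 did before. The part of the gate was not tested. A response particular to venous-like cells was therefore not shown at this number of libraries, and the missing calls do not show that the responses were alike.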

How the data were processed

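The authors deposited gene-by-cell UMI counts (10x Genomics 3' v3; whole-number counts, not normalized) of 6 libraries, and per the file headers Cell Ranger 6.1.2 made them. Version 2.1.1 of that tool and build mm10 stand in the submitters' processing notes. Library totals were 100810942 to 174929328 UMIs. Kept barcodes held 500 UMIs and 300 genes or more, with mitochondrial UMIs up to 20%. Sums of raw counts over the cells of a class in a library (10 cells or more) were tested with edgeR 4.0.16 (filterByExpr, TMM, robust quasi-likelihood, Benjamini-Hochberg adjustment), with the library as a block between classes; shares were compared by exact permutation tests. The members and gene lists were chosen with earlier results of these data known. Named genes were the 10 higher and 10 lower genes of largest fold among those that passed (at least 10 CPM in the higher class, same direction in every library), the 5 genes of smallest p per direction where none passed, listed genes whatever their result, and up to 4 members of each list by smallest p. A gene and a promoter sequence that these rules named are not reported here.

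Doublets were scored with 20 neighbours at 0.8% per 1000 cells and kept. Alternatives were RLE size factors, no filter, DESeq2 1.42.0, limma 3.58.1 (voom), cells thinned to 1500 UMIs, at least 3 venous genes, doublets removed, no leukocyte UMI, 1000 UMIs with 10% mitochondrial, no block, and leaving out each library. The fit was also run on simulated counts with known folds. Every simulated gene had the same variability, taken from the fits above, and changed genes were drawn from those at 20 CPM or more. No library was made to stand apart, so the shares recovered do not cover lower genes or genes high in 1 library. In the comparison of treatments the fit recovered 14% of 100 genes changed by a log2 fold of 1 and 91% of 100 at 2. Against tip-like cells it recovered 92% and 100%. Replicates are separate tumours numbered in accession order. Gene positions are from GENCODE (GRCm38). How many UMIs a library held limits the low genes most.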

Additional observations from a re-analysis of the deposited data

How the results depend on the processing

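The share of venous-like cells among endothelial cells had no stable sign: the difference of -1.60 points became 1.03 after thinning and 4.98 under the stricter gate, and lay between -7.54 and 2.64 when each library was left out in turn (0.20 without vehicle replicate 3, 0.10 without IPI-926 replicate 2). The share among kept cells stayed lower with IPI-926 in every alternative run, by -1.76 to -0.56 points with a library left out (-0.56 without vehicle replicate 3). Between treatments edgeR's 0 calls became 2 without the filter, 6 with DESeq2, 1 under the stricter gate, and 0 to 4 with a library left out (4 without vehicle replicate 2). For the difference of responses the counts were 19 without the filter, 4 with DESeq2, 1 after thinning and 0 to 100 with a library left out (100 without IPI-926 replicate 3). Against tip-like cells the 1763 calls became 118 after thinning (4 libraries, fewer genes tested), 1116 without doublets, 1075 under the stricter gate, 444 without the library block and 1036 to 1467 with a library left out (1036 without vehicle replicate 1, 1051 without IPI-926 replicate 1). Against arterial-like cells the 686 calls became 1031 without the filter, 235 without the block and 477 to 623 with a library left out. After thinning there were 148 calls, from 770 genes fitted in 4 libraries against 8561 genes in 5. Against all other endothelial cells the 1654 calls became 193 after thinning, from 2049 genes fitted against 10701. They became 645 under the stricter gate, 188 without the block and 616 to 1705 with a library left out (932 and 616 without vehicle replicates 1 and 2, 745 and 845 without IPI-926 replicates 1 and 3). Of the genes called against all other endothelial cells, 1219 of 1406 tested kept their sign under the stricter gate and 458 of 561 after thinning. Among the genes followed through every alternative and called in either fit, the sign turned for these: against all other endothelial cells Cd34 to -0.13 after thinning and -0.22 under the stricter gate, Flt4 to -1.003 after thinning, and Nrp1 to -0.53 and -0.52 likewise; against arterial-like cells Cd34 to 0.0404 after thinning. The cause was not tested. No paired analysis was possible because the labels carry no replicate numbers.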
